A study of Mus musculus with 6 samples.

Results

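The genes described here encode proteins that start, carry, restrain or sense blood coagulation, and proteins that activate plasminogen. They are *F2r*, *F3*, *F5*, *F10*, *Thbd*, *Procr*, *Tfpi*, *Plat*, *Plau* and *Plaur*, and all 10 were found by symbol among the 19078 genes of the deposited table. They were chosen by name, with earlier results of the comparison of *Ms4a15* OE with control in view. The fold changes and p-values of that comparison are the authors' own and were not used, so the contrast that drew attention to *F5* is not described, and no member was tested. What is described is the level of each transcript, as the authors' mean over all 6 libraries of both groups.

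RNAseq was performed on 3 libraries of *Ms4a15* OE cells and 3 of control cells. Both are immortalized mouse embryonic fibroblasts (MF) with a conditional *Gpx4* allele and Cre-ERt2, cultured in medium with serum, and the labels give no treatment. In *Ms4a15* OE, a pool of infected cells, a CRISPR activation system and a guide raise transcription from the *Ms4a15* locus. The labels call control cells wild type, whereas the study's methods describe their infection with empty lentivirus. These methods do not state separately whether control cells carry the activation system. *Ms4a15* had a mean of 638 normalized counts over all libraries, which cannot show whether each library carries its label. Normalized counts are reads divided by a size factor for the depth of each library. The means of all genes sum to 40991755, and the median gene had 237 normalized counts. Because each mean joins both groups, a level cannot be ascribed to *Ms4a15* OE or to control, and no SD is given unless reads of single libraries could be worked out.

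Coagulation is set off when tissue factor, the product of *F3*, meets circulating factor VII at a cell surface. The complex activates factor X, which makes thrombin with factor V as its cofactor. TFPI blocks these first steps, and thrombomodulin with the endothelial protein C receptor turns thrombin towards activating the anticoagulant protein C. Thrombin also signals to cells by cleaving its receptor PAR1, encoded by *F2r*. Plasmin, which dissolves fibrin and degrades matrix, is made from plasminogen by the urokinase and tissue-type activators, and urokinase is held at the cell surface by its receptor.

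Sequences are given for what set the groups apart and for the promoters that differ most in the motif search described further on. The guide for *Ms4a15* matched the forward direction of the gene's promoter at chr19:10993361-10993380 (GRCm38, reverse strand), from 130 to 111 bases before the annotated start, and the 3 bases that follow it are GGG. It is shown with 25 bases on each side, the guide in capitals.
Ms4a15 guide: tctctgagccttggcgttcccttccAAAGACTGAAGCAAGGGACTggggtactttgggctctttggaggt
RefSeq promoters of GRCm38, from 250 bases before to 50 bases after an annotated start, were matched for 7 of the members. The motifs searched on both strands were TGANTCA, a pattern that includes the sites of AP-1 factors, the GC box GGGCGG, and the TATA box TATAAA. In *F3* (chr3:121723287-121723586, forward strand) all were present, and they are in capitals. In *F10* (chr8:13037058-13037357, forward strand) these letters were not found.
F3 promoter: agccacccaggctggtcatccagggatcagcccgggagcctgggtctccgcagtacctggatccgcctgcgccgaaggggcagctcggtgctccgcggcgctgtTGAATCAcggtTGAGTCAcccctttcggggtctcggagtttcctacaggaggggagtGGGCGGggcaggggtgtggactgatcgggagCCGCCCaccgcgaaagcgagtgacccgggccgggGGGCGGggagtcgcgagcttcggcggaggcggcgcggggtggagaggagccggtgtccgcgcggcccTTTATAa
F10 promoter: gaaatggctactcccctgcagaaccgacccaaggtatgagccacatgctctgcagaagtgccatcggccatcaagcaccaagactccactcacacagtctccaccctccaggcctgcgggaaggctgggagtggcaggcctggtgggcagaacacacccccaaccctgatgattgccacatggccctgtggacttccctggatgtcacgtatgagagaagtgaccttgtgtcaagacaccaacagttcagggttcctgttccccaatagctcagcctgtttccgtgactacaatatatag
The match to TGANTCA is in capitals, with 25 bases on each side, for *Plaur* (chr7:24462389-24462445, forward strand), *Procr* (chr2:155751038-155751094, forward strand) and *F2r* (chr13:95618639-95618695, reverse strand).
Plaur match: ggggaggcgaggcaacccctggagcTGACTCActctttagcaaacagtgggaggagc
Procr match: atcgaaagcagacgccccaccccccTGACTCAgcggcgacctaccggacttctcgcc
F2r match: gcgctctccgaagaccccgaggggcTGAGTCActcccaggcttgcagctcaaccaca

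Of the 10 members, 8 had a mean of at least 100 normalized counts, which 54.7% of all genes in the table reached. *Thbd* and *F10* lay far lower, and no member fell between *Thbd* at 4.55 and *Plat* at 529 normalized counts. Levels of different genes were compared per kilobase of the longest transcript model of GENCODE M21, since a longer transcript yields more reads. On that scale *Plaur*, *Procr*, *Tfpi* and *F3* were highest, followed by *F2r*, *Plau*, *Plat* and *F5*. The median of the 14651 genes with a length was 165 normalized counts per kilobase, above *Plat* and *F5* and below the other 6 of these members.

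**Figure D1:**
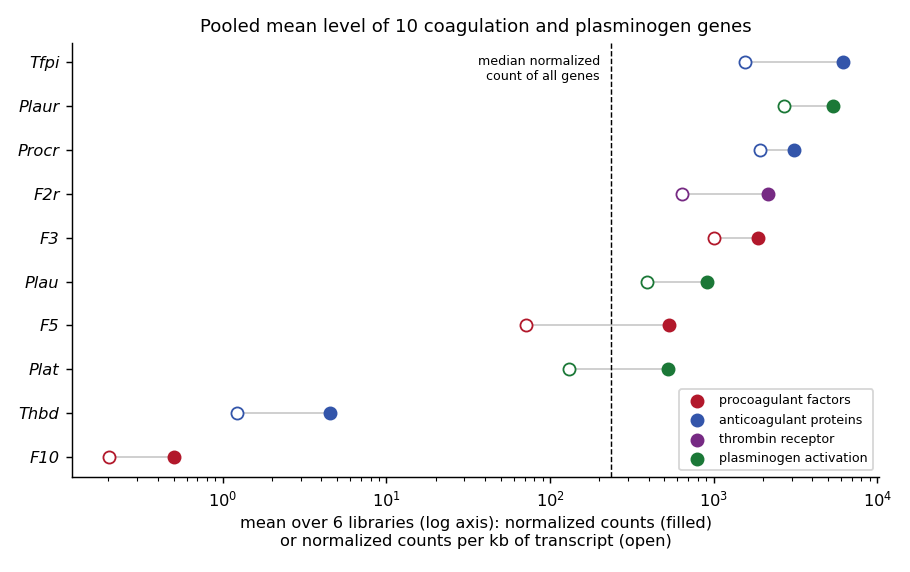
Authors' mean over all 6 libraries for each member on a log axis, as normalized counts (filled circles) and as normalized counts per kilobase of transcript (open circles), coloured by role. The dashed line marks the median normalized count of all genes, 237. The upper 8 members lie between 529 and 6155 normalized counts, and *Thbd* and *F10* at 4.55 and 0.503.

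*F3* lies on chromosome 3 of GRCm38 from 121723537 to 121735048, on the forward strand (ENSMUSG00000028128). Its mean was 1878 normalized counts, above 74.7% of the genes, or 1003 per kilobase of its transcript of 1872 bases. Thus tissue factor, the initiator of the cascade, ranked high in this fibroblast RNA, whereas the protease of the next step did not. *F10*, on chromosome 8 from 13037308 to 13056676 (ENSMUSG00000031444), had a mean of 0.503 normalized counts, and 11.3% of the genes were lower.

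Such a mean stands for so few reads that the reads themselves could be worked out. Genes with 1 read in 1 library gave the 6 size factors, 0.887, 0.938, 0.946, 1.02, 1.11 and 1.14. Which of these libraries are *Ms4a15* OE was not assigned. *F10* had 2 reads in the library with the size factor 0.946, 1 read in that with 1.11, and 0 in the other 4. These 3 reads have a 95% exact Poisson interval from 0.619 to 8.77, which like all intervals here covers counting error only. For a count of 0 in a library, a fixed limit of 3 reads was used in place of such an interval. This limit corresponds to 2.64 to 3.38 normalized counts by library. *F10* was thus at the limit of detection throughout.

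*F5*, which encodes the cofactor of activated factor X, lies on chromosome 1 from 164151838 to 164220277 on the forward strand (ENSMUSG00000026579) and has 25 exons. Its mean was 533 normalized counts, above 56.9% of the genes. Its transcript of 7430 bases is the longest of the members, and per kilobase its mean was 71.8, the lowest of the 8 members at 100 or more. *F3* was 14.0 times as high as *F5* per kilobase of transcript and 26.2 times per kilobase of coding sequence. Counting error of the *F5* mean was about 1.77%, with an interval from 515 to 552, but the spread between libraries is not contained in it. *F5* and *Plat* were neighbours by normalized count, at 533 and 529, and their intervals overlapped. Per kilobase *Plat* was the higher, at 131.

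The anticoagulant members differed widely among themselves. *Tfpi*, on the reverse strand of chromosome 2 from 84432855 to 84476775 (ENSMUSG00000027082), had the highest mean of all members, 6155 normalized counts, above 92.1% of the genes. Per kilobase its mean was 1551, that is 1.55 times that of *F3*, the factor whose complex it inhibits. This ratio was 3.15 per kilobase of coding sequence, so its size depends on the length used. *Tfpi* has 10 annotated transcripts, which the table does not separate.

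*Procr*, the endothelial protein C receptor gene, is on the forward strand of chromosome 2 from 155751117 to 155755471 (ENSMUSG00000027611). It had a mean of 3111 normalized counts, or 1934 per kilobase of transcript. On that scale *Plaur* alone was higher among the members, and per kilobase of coding sequence *Tfpi* was higher too. Thrombomodulin serves with this receptor in the activation of protein C by thrombin, but its gene *Thbd* was barely measured. *Thbd* has a single exon on the reverse strand of chromosome 2, from 148404466 to 148408188 (ENSMUSG00000074743), and its mean was 4.55 normalized counts, or 1.22 per kilobase. In the order of the size factors given above, the 6 libraries held 5, 8, 0, 7, 4 and 3 *Thbd* reads. A library without a single read thus stood beside 5 with 3 to 8. The 27 reads have a 95% exact Poisson interval from 17.8 to 39.3. Divided by the size factors, the library values ran from 0 to 8.53 normalized counts with an SD of 3.08 over all 6 libraries, which mixes both groups. Per kilobase *Procr* was 1584 times as high as *Thbd*.

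**Figure D2:**
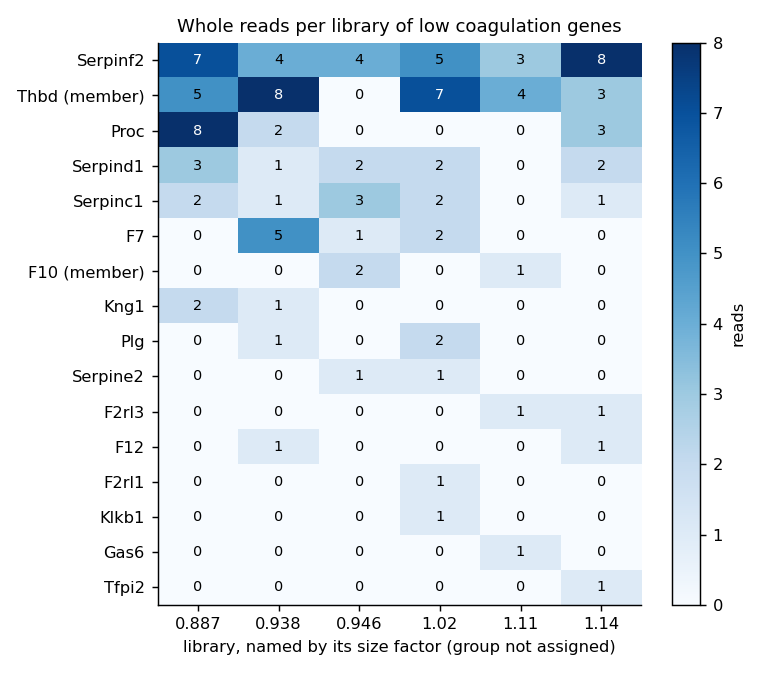
Whole reads in each of the 6 libraries for the members and other coagulation genes with a mean of at most 6 normalized counts. Columns are libraries named by size factor, which have no group assigned, and each cell gives its reads. *Thbd* has 27 reads in 5 libraries and *F10* has 3 reads in 2.

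*F2r* encodes the thrombin receptor PAR1 and lies on the reverse strand of chromosome 13 from 95601803 to 95618487 (ENSMUSG00000048376). Its mean was 2142 normalized counts, above 77.0% of the genes, or 642 per kilobase. The other protease-activated receptors with a row were close to absent. *F2rl1* had 1 read in 1 library and *F2rl3* 1 read in each of 2 libraries.

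Of the plasminogen activation genes, *Plaur* stood highest. The urokinase receptor gene, on the forward strand of chromosome 7 from 24462484 to 24475968 (ENSMUSG00000046223), had a mean of 5390 normalized counts, above 90.8% of the genes. Per kilobase of transcript it was at 2683, the highest level of the 10 members, whereas per kilobase of coding sequence *Tfpi* was higher. *Plau*, which encodes urokinase, is on chromosome 14 from 20836660 to 20843385 (ENSMUSG00000021822), with 914 normalized counts or 390 per kilobase. The receptor transcript was thus 6.88 times as high per kilobase as that of its ligand, and 7.81 times per kilobase of coding sequence. *Plat*, the tissue-type activator gene on chromosome 8 from 22757727 to 22782844 (ENSMUSG00000031538), had 529 normalized counts, and per kilobase *Plau* was 2.98 times as high. The order of *Plaur*, *Plau* and *Plat* was the same per kilobase of coding sequence.

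The other genes of both systems were taken from a list, of which 40 are reported. Of these, 28 had a row and 14 had a mean of at least 10 normalized counts. Of all genes in the table, 67.7% reached that level. Of the 14 cascade enzymes, cofactors and fibrinogen chains, 7 had a row. Among them *F8*, the cofactor of the intrinsic pathway, had a mean of 164 normalized counts, *F13a1*, the chain of the fibrin crosslinking enzyme, 47.2, and *Vwf* 15.1. *F7*, whose product binds tissue factor, had 8 reads in 3 libraries. Its mean was 1.39 normalized counts and that of *F10* 0.503. The transcripts of the partner and the substrate of tissue factor were thus both close to the limit of detection. *F5* was 4.28 times as high per kilobase as its relative *F8*.

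Of 9 genes of the protein C pathway and other anticoagulants, 6 had a row. *Pros1*, the gene of protein S, which serves activated protein C as a cofactor, had 2166 normalized counts. *Proc* itself had 13 reads, 8 of them in the library with the size factor 0.887. *Serpinc1*, the antithrombin gene, had 9 reads and *Serpind1* 10 reads, whereas *Gas6* and *Tfpi2* each had 1 read. Beside *Tfpi* and *Procr* among the members, *Pros1* was the single gene of these 6 with a mean above 10.

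The transcript of plasminogen itself was near absent, as *Plg* had 3 reads in 2 libraries. Among genes of plasminogen-binding proteins, *Anxa2* and *S100a10* were abundant, with 53127 and 18572 normalized counts. *Plgrkt*, listed as 5033414D02Rik, had 926, above 63.9% of the genes. *Lrp1*, a receptor that clears complexes of activator and inhibitor, had 20414. The inhibitors reported had 480 normalized counts for *Serpinb2*, 5.17 for *Serpinf2* and 2 reads for *Serpine2*. All 5 genes of carboxylation and secretion of coagulation factors were between 572 and 9417 normalized counts.

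**Figure D3:**
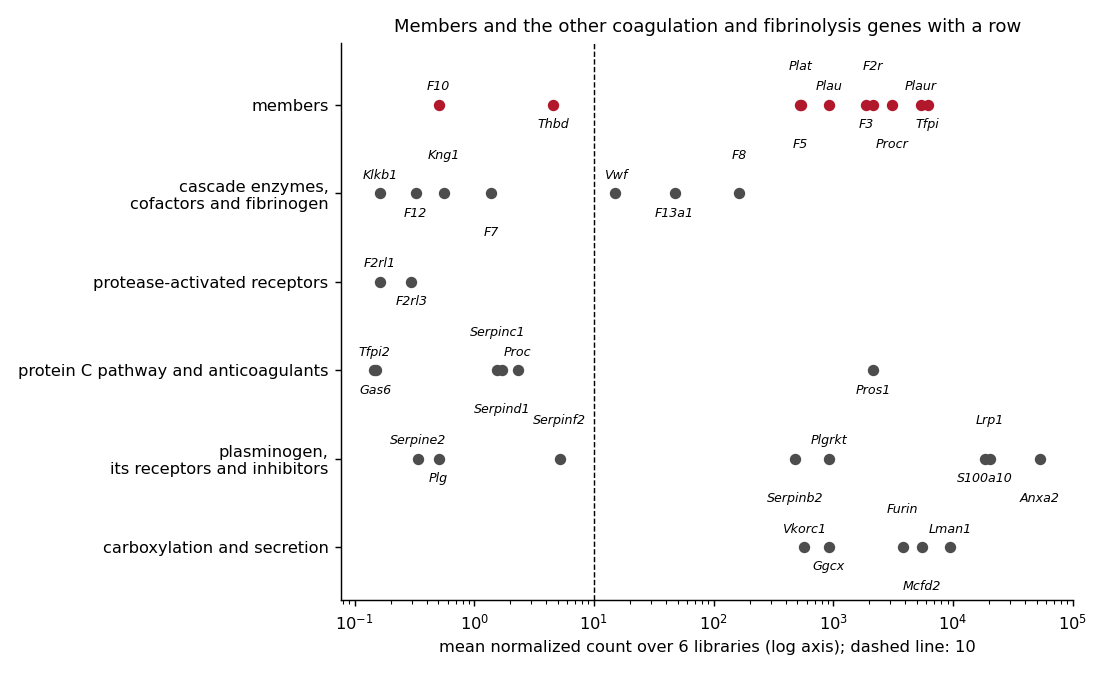
Authors' mean normalized count over 6 libraries, log axis, for the 10 members (red) and the 28 other genes with a row (grey), arranged by role. The dashed line is at 10 normalized counts, which 8 members and 14 other genes exceed, and *Anxa2* lies farthest to the right at 53127.

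Several members are known best from endothelium, so markers of other cell types were read beside them. Of 10 fibroblast markers 9 had a mean of at least 10 normalized counts, which 67.7% of all genes reached. *Col1a2* was at 135155 and *Vim* at 115135, but *Dcn* was at 12.1 and *Lum* at 4 reads. That minimum was also reached by 3 of 6 endothelial, 3 of 5 megakaryocyte and platelet, and all 4 macrophage markers with a row. It was reached by 1 of 4 epithelial and 0 of 3 hepatocyte markers with a row. The 6 endothelial markers ranged from 0.301 to 107 normalized counts, where *Cdh5* was the highest and the defining receptors *Kdr* and *Tek* had 8 reads each. Megakaryocyte and platelet markers ranged up to 81.8 for *Itga2b*, hepatocyte markers up to 3.46 for *Apoh*, and epithelial markers up to 10.9 for *Krt8*. The 4 macrophage markers with a row lay between 11.1 and 534, with *Lyz2* the highest. The part of other cells in the levels of the members was not tested, and in bulk RNA fewer expressing cells and less RNA per cell cannot be told apart.

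TGANTCA was found in 4 of the 8 promoter windows searched, not all of which are printed, beside 7.81% of all 32851 RefSeq promoters. The 4 windows are those of *F3*, *Procr*, *Plaur* and *F2r*, out of 7 members with a window. Counted from the RefSeq start of each window, the motif lies 154 bases upstream in *Procr*, 69 in *Plaur* and 204 in *F2r*. *F3* has matches at 146 and 135 bases before its start, which read TGAATCA and TGAGTCA. The RefSeq starts of *Procr* and *F2r*, and both of those of *Tfpi*, lie inside the genes as placed above from GENCODE. The 4 members with the motif had means of at least 1878 normalized counts, but a relation of motif to level was not tested. *F5*, *F10* and both windows of *Tfpi* did not hold TGANTCA, and *Tfpi* had the highest mean. *Plau*, *Plat* and *Thbd*, with means of 914, 529 and 4.55 normalized counts, had no window and were not searched. GGGCGG was found in 5 members and in 6 of the 8 windows, beside 35.7% of all promoters. In *Plaur* its 3 matches adjoin or overlap each other. TATAAA was found in 2 of the 8 windows, beside 13.6% of all promoters. These are *F3*, after the annotated start, and the first window of *Tfpi*, with both matches on the strand opposite to the gene. *F3* and *F2r* also held the most CG dinucleotides, 32 and 28, against a median of 7 in all promoters, and the other members held 3 to 13. These matches describe letters in a short window, and binding was not measured.

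**Figure D4:**
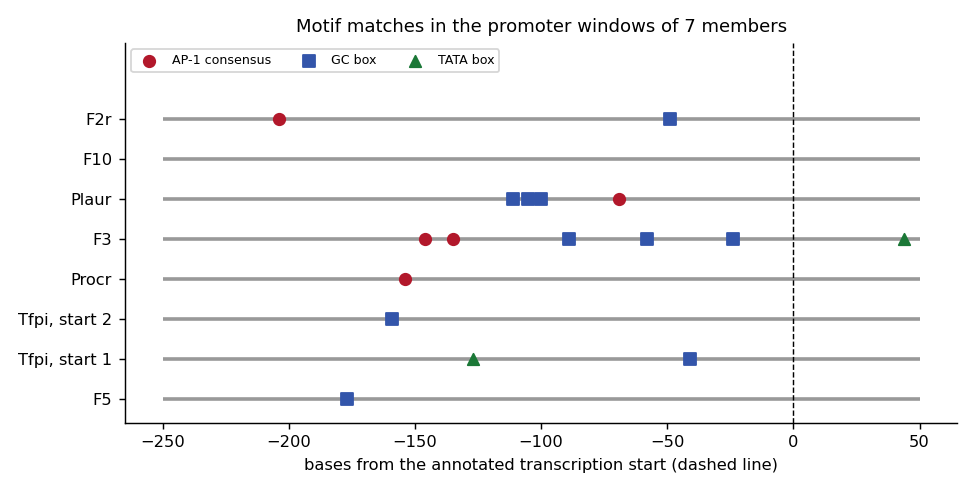
Positions of the motif matches in 8 promoter windows of 7 members, in bases from the annotated start (dashed line), which for *Tfpi* is given for 2 starts. Circles mark the AP-1 consensus, present in *F2r*, *Plaur*, *F3* and *Procr*, squares the GC box and triangles the TATA box, and *F10* has none of them.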

How the data were processed

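Poly(A)-selected RNA of 6 samples, 3 *Ms4a15* OE and 3 control, was sequenced as stranded libraries per the labels. According to the study's methods, the authors aligned reads to the mouse assembly mm10 with STAR and used HTSeq-count for reads per gene, while the submitters' processing notes also list TopHat, Cufflinks and Cuffdiff. The signal used is the authors' deposited mean, from DESeq2, of size-factor normalized counts over all 6 libraries, without an adjustment for gene length. The other 5 columns hold the authors' comparison (log2 fold change, its standard error, p-value, adjusted p-value and direction) and were not used. The deposited means and these 5 columns hold no values of single libraries or of groups. The reads worked out for low genes have no group, so the tests planned on single libraries were not run. Total reads per library are unknown.

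The members, the lists and the motifs were chosen with earlier results of these data known. The genes named are the 10 members and the listed coagulation, fibrinolysis and marker genes. Lengths and positions were from GENCODE M21 (GRCm38, the assembly of mm10), which matched 14651 symbols by exact name, and promoters from RefSeq (GRCm38). *Plgrkt* was matched through a RefSeq synonym. Genes without a row were not analysed here, and 1 listed gene is not reported here. The authors' gene models differ from GENCODE, and strand use in counting is not given in the sources used here.

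For genes with a mean of at most 6, all combinations of whole reads in the 6 libraries were enumerated that give the mean within the rounding of the table. Exactly 1 combination was found for all 4079 genes with a mean of at most 2, and for all 28 listed genes with a mean of at most 6. The genes with 1 read in 1 library are among the 4079 and fit by construction, since they gave the size factors. In simulated data, 199 of 200 genes were recovered. These were built from the same 6 size factors, with expected levels that stopped short of the limit of 6. The simulation thus tests only whether a combination is single, not whether the size factors are right. Poisson intervals are exact at 95%, and reads without molecular identifiers are not independent molecules. For higher means they were taken on 6 times the mean. Python 3.11.15, numpy 2.4.6, pandas 2.3.3, scipy 1.17.1 and matplotlib 3.10.9 were used.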

Additional observations from a re-analysis of the deposited data

How the results depend on the processing

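Per kilobase of coding sequence instead of transcript, the levels were 6705 normalized counts for *Tfpi*, 5495 for *Plaur*, 4285 for *Procr*, 2130 for *F3*, 1661 for *F2r*, 703 for *Plau*, 316 for *Plat*, 81.4 for *F5* and 2.63 for *Thbd*, since the coding sequence is shorter. *Tfpi* was then first and *Plaur* second, while *F10*, at 0.340, moved by less than its counting interval. Of the 45 pairs of members, 41 kept their order when the normalized count was taken per kilobase of transcript. The count of 14 other genes was 19 at a minimum mean of 1 and 12 at 100 normalized counts. With genes under a mean of 10 left out, *F5* was above 36.4% and *Tfpi* above 88.4% of the genes. Read combinations stayed single for 27 of 28 listed genes when the rounding was widened 10 times, a choice made after seeing the data, and *Serpinf2* then had 4 combinations.

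No paired analysis was possible because the deposited mean joins all libraries. For the same reason blocking by replicate number, omission of single replicates, other normalizations and filters on single libraries were not run. Depth limits *F10*, *Thbd* and the other genes given as reads, which cannot be compared between groups or told from background.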

Other observations

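Reads of some low genes were spread unevenly over the 6 libraries, given here in the order of the size factors 0.887, 0.938, 0.946, 1.02, 1.11 and 1.14. *Proc*, the gene of protein C, had 8, 2, 0, 0, 0 and 3 reads. *F7* had 0, 5, 1, 2, 0 and 0 reads. *Apoh*, a hepatocyte marker that binds phospholipid, had 0, 1, 4, 3, 8 and 6 reads. By contrast, *Serpinf2*, the gene of the plasmin inhibitor antiplasmin, had reads in every library, with 7, 4, 4, 5, 3 and 8. These come from the single combination within the rounding, which is less certain, since 4 combinations remained when the rounding was widened 10 times. No group is assigned to these libraries, and the differences between them were not tested.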
